A study of Danio rerio with 24 samples.

Results

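Chromatin and histone regulators were followed across single zebrafish eggs as a group of 63 transcript probes. The members are the probes of the study's lists of expressed, mother-specific and differentially expressed genes, as far as the parts of these lists held here go, whose gene name begins with a prefix of a histone, a histone-modifying enzyme, a remodeller, a DNA methyltransferase, a reader or a high-mobility group protein. A mean of at least 7 in the deposited normalized log2 values was also asked. The main design set has 88754 probes, of which 3835 are paired with a gene by these parts. Of those, 64 have such a name and 63 reach the mean. Just outside is dnmt3ab at 6.91, and just inside are brd1a at 7.002, arid3c at 7.01 and chd6 at 7.13. All 63 were called expressed. The prefix hmg also took in 3 genes of metabolism that encode no high-mobility group protein, the cholesterol genes hmgcrb and hmgcs1 among them, so 60 members are left as chromatin genes by name.

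Chromatin is DNA wrapped around histones, and its state is set by enzymes that write, erase and read chemical marks on histone tails, by remodellers that slide or exchange nucleosomes, and by histone variants that replace the usual ones. The genome of the fish egg is silent in transcription at first, and the embryo lives on RNA and protein from its mother until its own genome is switched on. The maternal stock therefore has to hold the histones and chromatin factors that package the genome through the first rapid cell cycles.

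The eggs were mature, unfertilized wild-type ABTL eggs, obtained by squeezing, of 5 mothers that are sisters. There were 5 eggs from each of mothers 1 to 4 and 4 from mother 5, so that mother means below have n = 5 and, for mother 5, n = 4. No treatment was given, and age was not given in the sources used here. Each mother gave 1 clutch, so mother and clutch cannot be told apart. RNA of each egg was polyadenylated, depleted of ribosomal RNA, amplified, labelled with Cy3 and hybridized on 1 of 24 arrays, with a reference pooled from eggs in Cy5. A value below is the log2 Cy3 intensity of a probe after quantile normalization between arrays, so it is a level relative to the other transcripts of that egg and not an amount per egg, and levels of different probes cannot be compared.

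Before normalization the mean log2 intensity of the expressed transcripts ran from 7.62 to 9.76 among the arrays, and 19083 to 25813 probes were called present per egg. This intensity was not spread evenly over the mothers. All arrays of mother 4 lay between 8.86 and 9.52. Those of mother 1 lay between 7.62 and 8.15, except for egg 1 at 9.30. In 23 of the 24 eggs the nearest other egg over all expressed transcripts came from the same mother, and the exception, egg 1 of mother 1, was nearest to an egg of mother 4. Without that egg, the count of members that differ between mothers given below becomes 23 in place of 22. With the array mean as a covariate in the limma fit the count becomes 21, beside 63.5% of all expressed transcripts. Of the 22, 19 are kept in that fit. Whether array intensity has a part in the differences between mothers was not tested further. Of 20 egg markers listed for this work, npm2a, piwil1 and the member h1m were paired with a probe and all 3 were called expressed. Of 10 follicle cell markers 2 were paired and called expressed, cyp11a1 and lhcgr, and 1 of 5 blood markers was paired and was not called. The mean of lhcgr over the eggs was only 6.57, near the 6.42 of that blood marker. Of 6 somatic and epithelial markers 1, vim, was paired and called expressed.

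The question was how far the eggs of different mothers differ in these transcripts. The 63 members fall into 2 groups. For 39 of them, held in the lists of expressed or differentially expressed genes, differences between the 5 mothers were put to a moderated F-test (limma), with adjustment over all 27077 expressed transcripts. The other 24 are known here only through the list of mother-specific genes, which the study chose on these same eggs because the clutches do not overlap, so their differences are described and not tested. Of the 39, 32 stand in the list of expressed genes and 7 only in that of differentially expressed genes, which the study also chose on these eggs. The 7 are arid1aa, arid2, smarcc1a, hmgb2a, brd1a, brd8 and kdm7ab. The study called them different between mothers under its own correction, and 2 of the 7 passed the test used here.

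Among the 39 tested members, 22 differed between mothers (56.4%), beside 61.5% of all expressed transcripts and 65.8% of all probes of the same lists. At an unadjusted p under 0.05 there were 23. Of the 32 in the list of expressed genes 20 differed (62.5%), and without the 3 metabolic genes 19 of 36 did (52.8%). The share is near the background, so it is no result about these genes in particular. The roles below hold 1 to 8 tested members each, so their counts are no result about a role either. Differences were small: the highest mother stood a median of 1.40-fold over the lowest in the 39 members and 1.36-fold in all expressed transcripts. In the 22 that differed the median of this ratio was 1.52, and in the other 17 it ran from 1.03 to 1.54.

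Larger differences were few. Between at least 1 pair of mothers, 2 of the 39 were over 2-fold apart with an adjusted p under 0.05 (5.13%), beside 10.3% of all expressed transcripts. Without the metabolic genes it was 1 of 36 (2.78%), kdm7ab (ENSDARG00000018559, chromosome 25, 17148132 to 17213901 on Zv9). Distinct levels, meaning that the range of egg values of at least 1 mother or group of mothers does not overlap that of the rest, were found in 5 of the 39 (12.8%), beside 18.2% of all expressed transcripts. Those with a chromatin gene name were kdm7ab, smarca5 and a cbx3b probe. The maximum fold change over all eggs (mFC) was over 2 in 23 of the 39 (59%), beside 44% of all expressed transcripts and 46.4% of the probes of the same lists. The clutch mFC is the widest fold range within a single clutch. It was at most 2 in 34 of the 39 (87.2%, beside 89.4% of all). A clutch mFC covers fewer eggs and can never exceed the mFC over all eggs, so no conclusion is drawn from its being smaller.

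**Figure D1:**
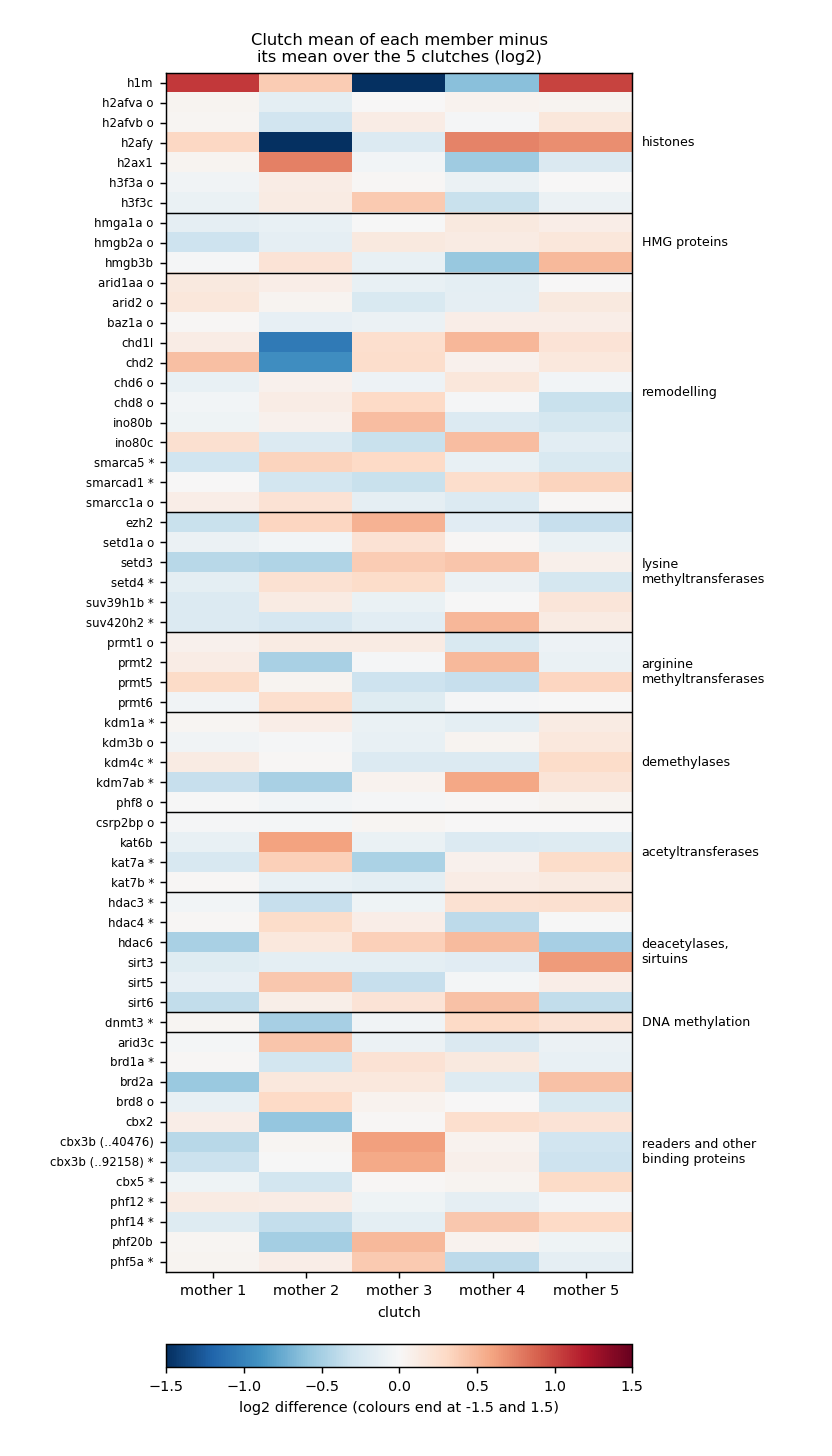
Clutch mean of each of the 60 members with a chromatin gene name minus its mean over the 5 clutches, in log2 units, with the members ordered by role; a star marks a tested member that differs between mothers, a circle a tested member that does not pass, and no mark a member held only in the list of mother-specific genes. The strongest colours are those of h1m (low in mother 3), h2afy, chd1l and chd2 (low in mother 2) and h2ax1 (high in mother 2), while most rows are pale.

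**Figure D2:**
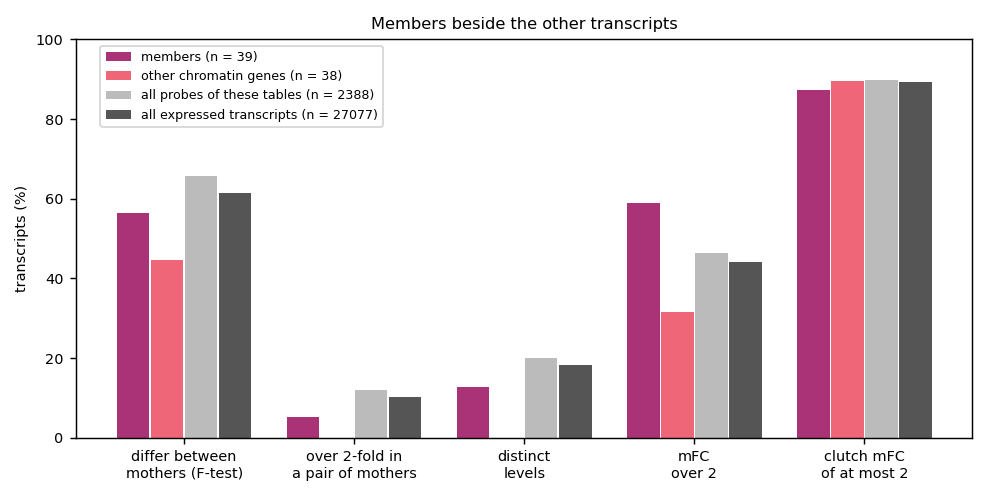
Share of transcripts, in percent, that meets each of 5 measures, for the 39 tested members, 38 other chromatin genes, the 2388 probes of the same lists and all 27077 expressed transcripts. The members are at 56.4% for the F-test beside 61.5% of all expressed transcripts, and at 5.13% beside 10.3% for a difference over 2-fold.

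The histones held the widest differences of the group, and beside them transcripts with small ones. Of 7 histone transcripts 3 were tested and none of the 3 passed the moderated F-test of limma, at an adjusted or an unadjusted p under 0.05. The other 4 belong to the mother-specific list. h1m (ENSDARG00000040344) encodes the maternal linker histone, the form of H1 with which the egg and early embryo are loaded. Its log2 signal was 11.54, 11.09, 11.32, 11.02 and 11.36 in the eggs of mother 1 and 11.35, 11.17, 11.19 and 11.17 in those of mother 5. It was 10.54, 10.57, 10.82, 10.45 and 10.55 in mother 2, 9.47, 9.71, 9.49, 9.70 and 9.52 in mother 4 and 8.06, 8.62, 8.40, 8.42 and 8.41 in mother 3. Mothers 1 and 5 shared the top level, and mothers 2, 4 and 3 followed in that order, each with a range apart from the next, which gives the profile 12431 with 1 for the highest level. Between mothers 1 and 3 the means differed 7.38-fold (11.27 ± 0.21 against 8.38 ± 0.20, SD), while no clutch spanned more than 1.48-fold.

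h2afy (ENSDARG00000053442), the histone variant macroH2A with its large globular macro domain, is found in silent chromatin of vertebrates. Its eggs measured 10.66, 10.59, 10.67, 10.53 and 10.59 in mother 4 and 10.48, 10.58, 10.62 and 10.55 in mother 5. They measured 10.28, 9.87, 10.26, 10.31 and 10.14 in mother 1, then 9.61, 9.76, 9.68, 9.52 and 9.73 in mother 3 and 7.93, 8.19, 8.73, 8.37 and 8.35 in mother 2. All eggs of mother 2 lay below every other egg, and the gap to the nearest egg was 0.79 on the log2 scale. The highest over the lowest mean was 4.91-fold, and the profile was 24311. The order of mothers was not that of h1m, where mother 3 was lowest and mother 2 lay above mothers 3 and 4.

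h2ax1 (ENSDARG00000068995, chromosome 10, 29930341 to 29931249 on Zv9) encodes H2AX, the H2A form that is phosphorylated beside DNA breaks. In mother 2 its eggs measured 11.63, 11.51, 11.76, 11.57 and 11.81, above all other eggs. Mothers 1, 3, 4 and 5 had means of 10.94 ± 0.11, 10.86 ± 0.20, 10.37 ± 0.46 and 10.68 ± 0.30 (SD), and their ranges overlapped. Mother 2 was 2.44-fold above mother 4. h3f3c (ENSDARG00000033009, chromosome 5, 36345114 to 36349323 on Zv9), a gene of the replacement histone H3.3, was highest in mother 3 at 9.08 ± 0.13 and lowest in mother 4 at 8.36 ± 0.14, a 1.65-fold difference of means. The eggs of mother 3 lay above the nearest egg of any other mother by a gap of only 0.04.

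The other H3.3 transcript, h3f3a, showed no distinct levels. Its clutch means were 13.56 ± 0.19, 13.73 ± 0.13, 13.64 ± 0.20, 13.53 ± 0.16 and 13.62 ± 0.20 in mothers 1 to 5 (SD), the ranges of all clutches overlapped, and the limma adjusted p was 0.512. Likewise h2afva (adjusted p = 0.480) and h2afvb (adjusted p = 0.467), which encode H2A.Z type variants, did not pass in the same test. The highest over the lowest mother was 1.15-fold for h2afva and 1.38-fold for h2afvb. For h2afvb the spread lay within clutches: its eggs ran from 11.95 to 13.38 in mother 2, and its clutch mFC of 2.70 was the largest of all 63 members.

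**Figure D3:**
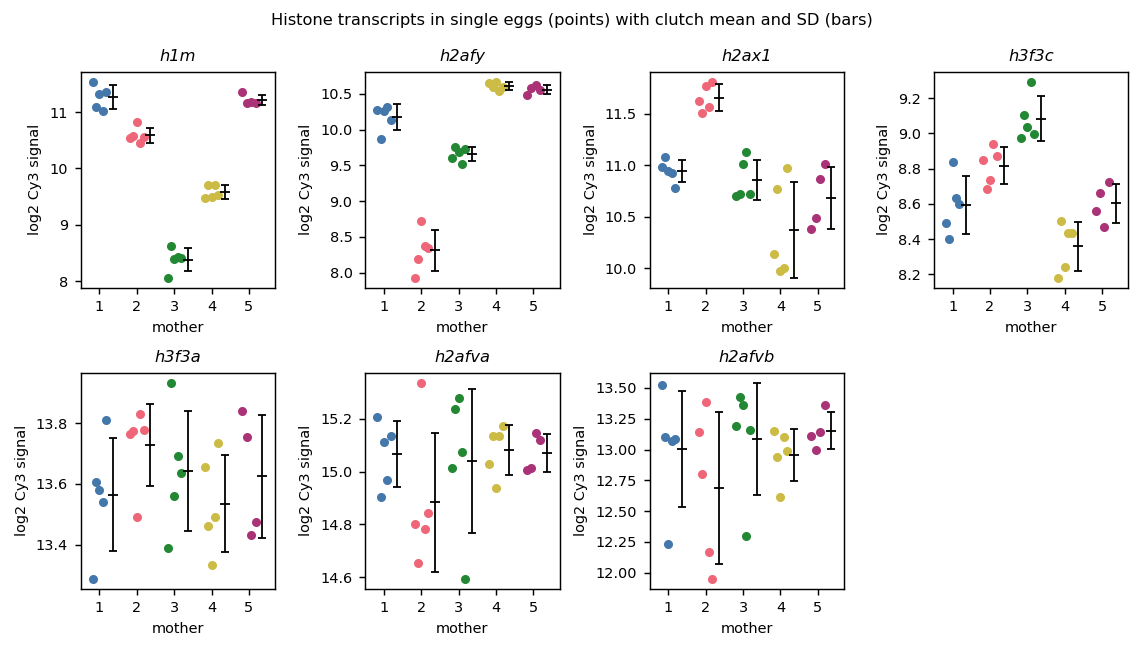
Log2 Cy3 signal of 7 histone transcripts in each egg, by mother; each point is an egg and the bars give the clutch mean and SD. In h1m, h2afy, h2ax1 and h3f3c at least 1 clutch lies apart from the rest, and in h3f3a, h2afva and h2afvb all clutches overlap.

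Of the high-mobility group proteins, which bend DNA and loosen nucleosomes, hmga1a with its AT-hooks and the HMG-box protein hmgb2a were tested and did not pass (limma adjusted p = 0.411 and 0.0924). The clutch means of hmga1a lay between 11.97 in mother 1 and 12.25 in mother 4, within the spread of single clutches. The HMG-box gene hmgb3b (ENSDARG00000006408, chromosome 21, 34085269 to 34095286 on Zv9) of the mother-specific list differed more. Its eggs measured 11.99, 12.13, 11.86 and 11.85 in mother 5 and 11.12, 10.77, 11.001, 11.06 and 10.54 in mother 4. Mothers 1, 2 and 3 lay between, at 11.45 ± 0.18, 11.67 ± 0.25 and 11.35 ± 0.23 (SD). Mother 5 was 2.09-fold above mother 4, although the gaps between the 3 levels were at most 0.03.

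Of 12 members of chromatin remodelling machines 8 were tested, and 2 of the 8 differed between mothers, beside 61.5% of all expressed transcripts. smarca5 (ENSDARG00000052348, chromosome 1, 52157701 to 52186216 on Zv9), the ISWI motor that spaces nucleosomes, was higher in mothers 2 and 3 than in the others. Its eggs measured 11.44, 11.10, 11.54, 11.21 and 11.28 in mother 2 and 11.17, 11.49, 11.27, 11.22 and 11.21 in mother 3. In mothers 1, 4 and 5 the means were 10.68 ± 0.17, 10.87 ± 0.14 and 10.75 ± 0.08 (SD). The ranges of these 2 sets of mothers did not overlap (profile 21122), the highest over the lowest mean was 1.55-fold, and the limma adjusted p was 3.48e-06. smarcad1 (ENSDARG00000014041, chromosome 8, 29626736 to 29643183 on Zv9), a remodeller that works behind replication forks, differed 1.59-fold between mothers 5 and 3 (adjusted p = 7.78e-04). The clutches formed a chain of overlapping ranges, in which mothers 2 and 5 did not overlap each other.

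The partner of smarca5 in nucleosome spacing, baz1a, had a small range of means. Its clutch means were 8.03 ± 0.27, 7.89 ± 0.27, 7.93 ± 0.13, 8.11 ± 0.18 and 8.11 ± 0.24 in mothers 1 to 5 (SD), a 1.17-fold range that did not pass the moderated F-test of limma (adjusted p = 0.425). Nor did the SWI/SNF subunits arid1aa, arid2 and smarcc1a (adjusted p = 0.571, 0.242 and 0.0867) or the chromodomain helicases chd6 and chd8 (adjusted p = 0.119 and 0.0917). Of these, chd8 had the widest range of means, 1.54-fold between mothers 3 and 5. Its clutch mFC of 2.08 was wider than that. The study's list of differentially expressed genes, made with another correction, does hold arid1aa, arid2 and smarcc1a, as it does nearly all expressed genes of the paper.

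The remodellers of the mother-specific list included the 2 widest differences among chromatin members outside the histones. chd1l (ENSDARG00000015471, chromosome 6, 36866233 to 36899693 on Zv9), a helicase that is recruited to sites of DNA damage, measured 8.18, 7.84, 8.37, 8.15 and 8.17 in mother 2. In the other mothers the means were 9.32 ± 0.20, 9.46 ± 0.31, 9.71 ± 0.14 and 9.41 ± 0.09 for mothers 1, 3, 4 and 5 (SD), and their ranges overlapped. Every egg of mother 2 lay at least 0.62 log2 units below every other egg, and mother 4 was 2.96-fold above mother 2. chd2 (ENSDARG00000060687, chromosome 18, 24946933 to 25003048 on Zv9), a chromodomain helicase of transcribed genes, had the same profile, 12111. Its eggs measured 6.57, 6.41, 6.58, 6.24 and 6.54 in mother 2 and 7.49, 8.01, 8.04, 7.79 and 7.92 in mother 1. The difference of means was 2.60-fold, and the gap from mother 2 to the nearest egg of any other mother was 0.76. However, only 2 of the 5 spots of mother 2 were well above background, so the level there is uncertain.

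Of the INO80 remodelling complex, ino80b was highest in mother 3 (9.03 ± 0.11, SD) and ino80c in mothers 4 and 1 (10.05 ± 0.16 and 9.83 ± 0.09, SD). Their profiles were 22122 and 12212. The 2 subunits thus had distinct levels in different mothers. The highest over the lowest mean was 1.66-fold and 1.74-fold.

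Among 6 lysine methyltransferases 4 were tested, and 3 of the 4 differed, beside 61.5% of all expressed transcripts. suv420h2, which methylates histone H4, was highest in mother 4 (9.15 ± 0.31, SD) and lowest in mother 2 (8.41 ± 0.20, SD), a 1.68-fold difference (limma adjusted p = 0.00179). setd4 was 1.45-fold higher in mother 3 than in mother 5 (adjusted p = 0.00188) and suv39h1b, which lays down the heterochromatin mark on H3, 1.30-fold higher in mother 5 than in mother 1 (adjusted p = 0.0274). setd1a, of a complex that marks active promoters, did not pass: its clutch means were 8.99 ± 0.19, 9.03 ± 0.27, 9.29 ± 0.14, 9.10 ± 0.16 and 8.98 ± 0.13 in mothers 1 to 5 (SD; adjusted p = 0.110).

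ezh2 (ENSDARG00000010571, chromosome 24, 17201102 to 17220037 on Zv9), the catalytic subunit of the Polycomb repressive complex that methylates H3 at silent genes, is in the mother-specific list. Its eggs measured 10.06, 10.27, 10.36, 10.32 and 10.13 in mother 3 and 10.09, 9.88, 10.05, 10.08 and 10.004 in mother 2. They measured 9.37, 9.56, 9.61, 9.63 and 9.50 in mother 4, then 9.59, 9.34, 9.40, 9.33 and 9.19 in mother 1 and 9.41, 9.31, 9.34 and 9.39 in mother 5. Mothers 2 and 3 lay above all others with a gap of 0.25, the same split of mothers as for smarca5, and the highest over the lowest mean was 1.82-fold. setd3, known as a methyltransferase of actin in mammals rather than of histones, was 1.81-fold higher in mother 4 than in mother 2.

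Of 4 arginine methyltransferases only prmt1, the main enzyme of its type in vertebrate cells, was tested. Its clutch means of 10.44 ± 0.20, 10.51 ± 0.28, 10.51 ± 0.22, 10.15 ± 0.23 and 10.31 ± 0.06 in mothers 1 to 5 (SD) did not pass the moderated F-test of limma (adjusted p = 0.0785). prmt2 (ENSDARG00000063212, chromosome 9, 9981690 to 9989567 on Zv9), another enzyme of this family, measured 8.56, 8.81, 8.45, 8.49 and 8.57 in mother 4 and 7.51, 7.66, 7.85, 7.43 and 7.52 in mother 2, a 1.97-fold difference of means. Mothers 1, 3 and 5 lay between, at 8.20 ± 0.16, 8.06 ± 0.14 and 7.99 ± 0.20 (SD). The ranges of mothers 2 and 5 overlapped, so that only mother 4 had a level of its own (profile 22212).

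prmt5, which makes symmetric dimethylarginine and is needed for germ cells in mice, fell into 3 levels. Mothers 1 and 5 were highest (11.74 ± 0.05 and 11.77 ± 0.08, SD), mother 2 followed (11.49 ± 0.04) and mothers 3 and 4 were lowest (11.14 ± 0.08 and 11.10 ± 0.16). The whole difference was 1.59-fold, with a clutch mFC of 1.36. prmt6 was higher in mother 2 alone (11.30 ± 0.08, SD), 1.35-fold above mother 3, the smallest such difference among the 24 members of the mother-specific list.

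All 5 histone demethylases were tested, and 3 differed, beside 61.5% of all expressed transcripts. kdm7ab (ENSDARG00000018559, chromosome 25, 17148132 to 17213901 on Zv9), of a family that removes repressive marks from H3, is held only in lists that the study chose on these eggs for differing between mothers, so its values are a description and its place in the counts above is no independent evidence. Its eggs measured 9.04, 8.78, 9.13, 9.15 and 8.81 in mother 4, 8.52, 8.56, 8.60 and 8.66 in mother 5 and 8.44, 8.50, 8.44, 8.53 and 8.31 in mother 3. They measured 8.20, 7.98, 8.31, 7.84 and 7.94 in mother 1 and 7.81, 7.85, 8.22, 7.88 and 7.79 in mother 2. Mother 4 lay above all other eggs with a gap of 0.12, and mothers 1 and 2, which overlapped, lay just below the rest, giving the profile 33212. Mothers 4 and 2 differed by 1.07 on the log2 scale or 2.099-fold.

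kdm4c and kdm1a, which demethylate H3 as well, differed by less. kdm4c was 1.40-fold higher in mother 5 than in mother 3 (adjusted p = 0.0122) and kdm1a 1.203-fold higher in mother 5 than in mother 4 (adjusted p = 0.0188), by the same limma test. kdm3b did not pass (1.202-fold, adjusted p = 0.160). phf8, a relative of kdm7ab, was among the flattest members: its clutch means were 7.93 ± 0.13, 7.89 ± 0.23, 7.91 ± 0.23, 7.95 ± 0.11 and 7.97 ± 0.09 in mothers 1 to 5 (SD; adjusted p = 0.967).

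Of 4 histone acetyltransferases 3 were tested and 2 differed, beside 61.5% of all expressed transcripts. kat7a and kat7b are the zebrafish co-orthologues of the enzyme KAT7. kat7a (ENSDARG00000070371, chromosome 3, 32758082 to 32770575 on Zv9) measured 8.98, 8.88, 8.95, 9.11 and 8.66 in mother 2 and 8.14, 8.16, 8.25, 7.81 and 8.06 in mother 3. The other means were 8.32 ± 0.14, 8.62 ± 0.15 and 8.83 ± 0.07 in mothers 1, 4 and 5 (SD). The clutches formed a chain of overlapping ranges with mothers 2 and 3 at its ends, 1.78-fold apart (limma adjusted p = 1.73e-07). For kat7b the difference was 1.21-fold, between mothers 5 and 3 (adjusted p = 0.0125). Mother 2 was thus highest in kat7a and second lowest in kat7b.

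csrp2bp, the acetyltransferase KAT14 of the ATAC complex, was the most even of all members. Its eggs lay between 9.73 and 10.18, its clutch means between 9.92 and 9.97, and the limma adjusted p was 0.975. The mFC over all 24 eggs was 1.36, the smallest of the 63. kat6b, of the same enzyme family as KAT7 and of the mother-specific list, was higher in mother 2 (8.01 ± 0.25, SD) than in every other egg, 1.75-fold above mother 4.

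The 6 deacetylases and sirtuins remove acyl groups. Both tested members differed, hdac3, the enzyme of the NCoR corepressor, by 1.504-fold between mothers 5 and 2 (limma adjusted p = 0.0231), and hdac4 by 1.59-fold between mothers 2 and 4 (adjusted p = 9.30e-05). For hdac3 the clutch means were 9.58 ± 0.35, 9.27 ± 0.31, 9.56 ± 0.31, 9.85 ± 0.23 and 9.86 ± 0.17 in mothers 1 to 5 (SD), with overlapping ranges. hdac6 (ENSDARG00000008384, chromosome 8, 7374704 to 7425659 on Zv9), a tubulin deacetylase of the cytoplasm rather than a chromatin enzyme, is in the mother-specific list. Its eggs measured 8.31, 7.90, 8.18, 8.04 and 8.34 in mother 1 and 8.13, 8.02, 8.26 and 8.18 in mother 5. They measured 8.74, 8.63, 8.999, 8.73 and 8.91 in mother 2, 9.06, 9.13, 9.07, 8.84 and 8.90 in mother 3 and 9.06, 9.18, 8.85, 9.33 and 9.21 in mother 4. Mothers 1 and 5 lay below all others with a gap of 0.28, and mother 4 was 1.97-fold above mother 5.

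Mothers 1 and 5 were also lowest in sirt6, a nuclear sirtuin of chromatin and DNA repair (11.45 ± 0.21 and 11.45 ± 0.11, SD). Mothers 2 and 3 followed (11.91 ± 0.12 and 12.03 ± 0.12) and mother 4 was highest (12.26 ± 0.08), with the profile 32213. The difference of means was 1.76-fold. The mitochondrial sirtuins were set apart by single mothers. For sirt3 it was mother 5, with eggs at 8.17, 8.21, 8.22 and 8.19 beside means of 7.37 to 7.41 in the other mothers (1.77-fold). For sirt5 it was mother 2 (10.22 ± 0.14, SD), 1.68-fold above mother 3.

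**Figure D4:**
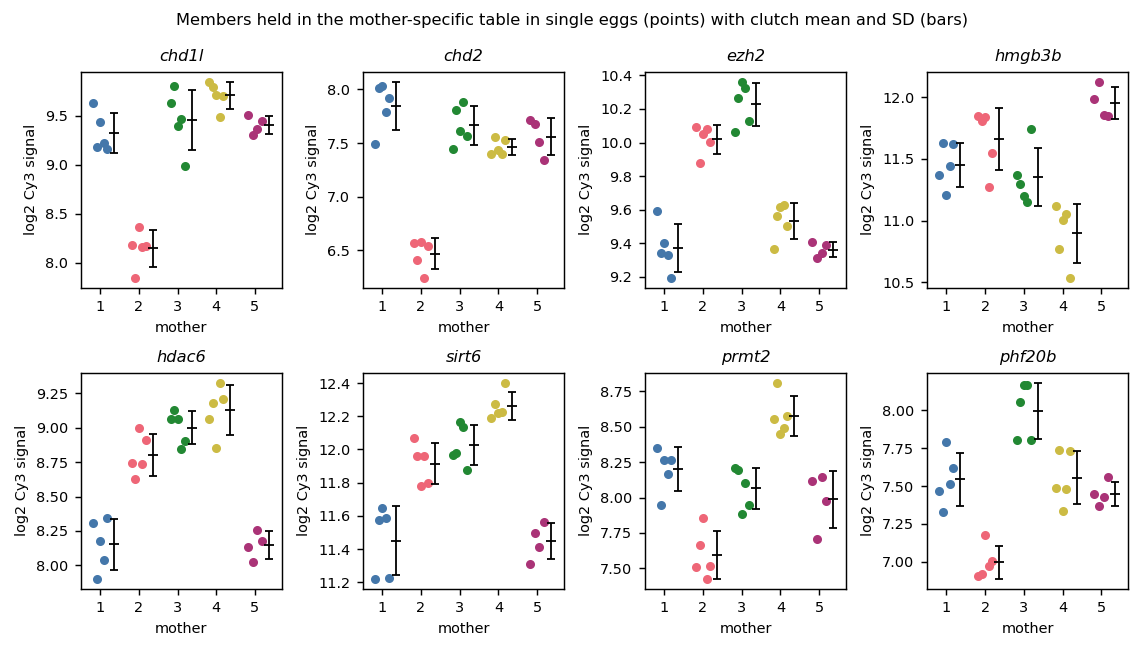
Log2 Cy3 signal of 8 members of the mother-specific list in each egg, by mother; each point is an egg and the bars give the clutch mean and SD. chd1l, chd2 and phf20b are lowest in mother 2, ezh2 is highest in mothers 2 and 3, and hdac6 and sirt6 are lowest in mothers 1 and 5.

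In the parts of the lists held here, the only DNA methyltransferase above the minimum was dnmt3 (ENSDARG00000057830, chromosome 23, 17035036 to 17078731 on Zv9). It is a de novo enzyme that the gene name table lists as dnmt3bb.2. Others outside these parts could not be looked up. Its eggs measured 9.58, 9.69, 9.26, 9.52 and 9.36 in mother 4, 9.55, 9.47, 9.39 and 9.17 in mother 5 and 9.46, 9.07, 9.22, 9.05 and 9.28 in mother 1. They measured 9.33, 9.44, 9.45, 8.57 and 8.88 in mother 3 and 8.75, 8.55, 8.89, 8.49 and 8.72 in mother 2. Mother 2 had the lowest mean, and the eggs of mother 3 reached into its range. The highest over the lowest mean was 1.74-fold (limma adjusted p = 3.00e-04).

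Of 12 readers and other chromatin-binding proteins 7 were tested and 6 of the 7 differed, beside 61.5% of all expressed transcripts. All 6 differed by less than 2-fold. phf14, a PHD finger protein, was 1.69-fold higher in mother 4 than in mother 2 (limma adjusted p = 6.51e-05), and phf5a, a subunit of the SF3b splicing complex in spite of its name, 1.72-fold higher in mother 3 than in mother 4 (adjusted p = 3.51e-05). cbx5, which encodes the heterochromatin protein HP1 alpha, was 1.48-fold higher in mother 5 than in mother 2 (adjusted p = 0.0166). The smallest difference that passed in the group was that of phf12, of a Sin3 corepressor complex, and its sign turned with arrays centred on their median. Its clutch means were 9.98 ± 0.09, 9.98 ± 0.11, 9.80 ± 0.11, 9.72 ± 0.10 and 9.82 ± 0.08 in mothers 1 to 5 (SD), 1.196-fold (adjusted p = 0.0126). brd8, of an acetyltransferase complex, did not pass (adjusted p = 0.0602), and brd1a did. For brd1a, one of the 7 known only from the list of differentially expressed genes, 11 of 24 eggs were called present and 2 of 5 spots of its lowest mother were well above background, so the measured 1.41-fold is uncertain.

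The name of cbx3b, another HP1 gene, is carried by 2 probes under different gene identifiers. Each is annotated as able to bind the target transcript of the other, and over the 24 eggs their signals were apart by 0.056 log2 units in the median and 0.28 at the most. The transcripts behind them cannot be told apart here. Under the identifier ENSDARG00000040476 the eggs of mother 3 measured 8.19, 8.51, 8.26, 8.40 and 8.46. The other clutch means were 7.34 ± 0.13, 7.78 ± 0.12, 7.81 ± 0.22 and 7.46 ± 0.23 in mothers 1, 2, 4 and 5 (SD). Mother 3 lay above all other eggs with both probes, 2.04-fold and 1.86-fold above the lowest mother, and the second, which was tested, had a limma adjusted p of 6.84e-07.

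The remaining readers are of the mother-specific list. phf20b (ENSDARG00000038737, chromosome 23, 15236719 to 15280742 on Zv9), of a histone acetyltransferase complex in mammals, measured 7.80, 8.05, 8.17, 8.17 and 7.80 in mother 3 and 6.90, 6.92, 7.17, 6.97 and 7.004 in mother 2, with 3 levels in all (profile 23122) and 2.01-fold between the ends. It was called present in only 19 of 24 eggs, although its spots were well above background on every array. brd2a, a bromodomain protein that binds acetylated histones, was lowest in mothers 1 and 4 (9.74 ± 0.23 and 10.11 ± 0.06, SD) and highest in mother 5 (10.74 ± 0.09), 1.999-fold apart. cbx2, a Polycomb subunit, was low in mother 2 (9.30 ± 0.14, SD), 1.78-fold below mother 4. Of these Polycomb genes, mother 2 was thus among the highest in ezh2 and lowest in cbx2. arid3c, a DNA-binding protein called present in 8 of 24 eggs, was 1.56-fold higher in mother 2 than in mother 4.

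**Figure D5:**
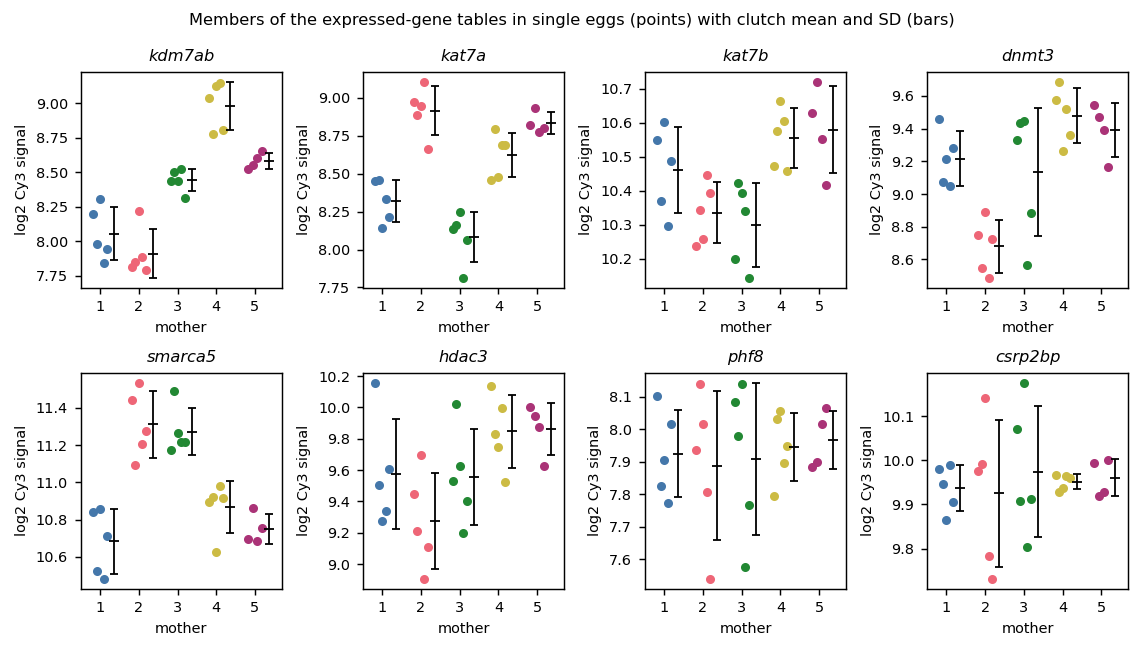
Log2 Cy3 signal of 8 tested members in each egg, by mother; each point is an egg and the bars give the clutch mean and SD. kdm7ab is highest in mother 4 and smarca5 in mothers 2 and 3, kat7a and kat7b differ in their order of mothers, and phf8 and csrp2bp are even.

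The cholesterol synthesis genes hmgcrb and hmgcs1, which their names alone brought in, also differed between mothers. By limma's F-test hmgcrb differed 1.44-fold (adjusted p = 3.55e-04) and hmgcs1 1.33-fold (adjusted p = 0.0456), with hmgcrb apart in mother 5 and hmgcs1 in a chain of overlapping clutches of which mothers 2 and 4 did not overlap each other.

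No single order of mothers ran through the group. Of the 22 tested members that differed, mother 5 was highest in 9 and mother 4 in 5, mother 2 was lowest in 8 and mother 3 in 5. Over all expressed transcripts that differed, mother 5 was highest in 17.5% and mother 4 in 24.5%, and mother 2 was lowest in 25.3% and mother 3 in 21.9%. Mother 5 was also highest in cyp11a1, at 11.63 beside 10.41 to 11.34 in the other mothers (limma adjusted p = 1.83e-06). This gene was listed as a follicle cell marker, but its clutch means were 10.41 or more in all 5 mothers. Whether it marks follicle cells in these eggs was not tested. Mother 5 had the lowest mean of the egg marker piwil1, at 9.42 (limma adjusted p = 5.93e-04). The egg marker npm2a did not pass (limma adjusted p = 0.771). The remaining egg marker, h1m of the mother-specific list, went the other way. It was at 11.22 in mother 5 and 11.27 in mother 1, beside 8.38 to 10.59 in the rest. Mother 2 was highest in lhcgr, also listed as a follicle cell marker, at 7.59 beside 6.26 to 6.33 in the rest. That gene is of the mother-specific list. Its levels in the rest lie near those of the blood marker hbae3, which was not called expressed, so they are uncertain. Of blood and other somatic cells, hbae3 lay between 6.30 and 6.57 and vim between 6.48 and 7.43 by clutch mean. Whether RNA of other cells has a part in the members' levels was not tested. By pairs of mothers, the tested members that passed in the same fit numbered between 6 and 18 of 39. The most were between mothers 2 and 4, with 18 beside 39.4% of all expressed transcripts. Mother 5 against mothers 2 and 3 gave 14 each, beside 33.8% and 34.4% of all, and mothers 3 and 4 gave 13, beside 36%. Mother 1 against mothers 2 and 4 gave 7 and 9, beside 27.8% and 23.4%, and mothers 4 and 5 gave 7, beside 18.4%. The fewest were 6 each between mothers 1 and 3, 1 and 5, and 2 and 3, beside 32%, 10.8% and 29.7%.

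Each slide held eggs of 4 mothers, so that differences could be taken within slides. All 22 members that differed kept the sign of the difference between their highest and lowest mother on every slide with both, 3 or 4 slides each, and so did 7 of the 17 that did not pass. The mothers were picked by the same values, so a positive sign is favoured. With slide as a block in the limma fit, 21 of 39 members differed, 19 of them among the 22, beside 58.1% of all expressed transcripts. In the reference channel, which holds the same pool on every array, none of the 39 members differed between the mothers of the Cy3 eggs in the same test at an adjusted p under 0.05 and 1 did at an unadjusted one, beside 0 and 197 of all 27077. The median range of the 5 means was 0.14 log2 units there and 0.48 in the eggs.

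These counts moved with the scaling. With median centring of the arrays as the only scaling, 4 of the 39 members and 12.4% of all expressed transcripts differed, and the ratio of Cy3 over Cy5 gave 13 members and 44.4% of all. The expressed transcripts as a whole moved by up to 0.98 log2 units between mothers with median centring, and relative to that shift 22 of the 24 members with values by egg or by clutch selected by rule kept their sign, the exceptions being h3f3a and phf12.

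Other chromatin genes without the name prefixes also differed by small amounts. From a list of such genes 49 were paired with a probe, 38 of them in the tested lists, and 17 of the 38 differed between mothers (44.7%, beside 61.5% of all expressed transcripts), 18 at an unadjusted p under 0.05. None was over 2-fold apart in a pair of mothers, beside 10.3% of all, and none had distinct levels, beside 18.2%. Those that differed ran from 1.23-fold to 1.72-fold. At the top were the Polycomb gene bmi1b (1.72-fold, limma adjusted p = 2.31e-05), highest in mother 1, and the nuclear actin relative actr6 (1.68-fold, adjusted p = 1.71e-05), highest in mother 3. The coactivator crebbpa (1.52-fold, adjusted p = 4.48e-04) and the insulator protein ctcf (1.29-fold, adjusted p = 1.10e-04) also passed. The remodeller hells (adjusted p = 0.166), the histone chaperone nasp (adjusted p = 0.165) and the coactivator ep300a (adjusted p = 0.0767) did not.

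The other 11 genes of that list were in the mother-specific list only, and 5 of them had a highest mother over 2-fold above the lowest. These were alkbh1, a demethylase of nucleic acids (6.70-fold), the Polycomb partner yaf2 (3.46-fold by measured means, with 1 of 5 spots of the lowest mother well above background), the ubiquitin ligase of DNA damage rnf168 (3.26-fold), znhit1 of the complex that loads H2A.Z (3.09-fold) and l3mbtl2 of a Polycomb complex (2.296-fold). Among the 24 members of that list 8 were over 2-fold by the same measure, beside 10.8% of all expressed transcripts. The range of the 24 was 1.35-fold to 7.38-fold. That list was chosen on these eggs for clutches that do not overlap, so the choice itself favours high shares. Neither the 8 of 24 nor the 5 of 11 is a result about chromatin genes.

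Positions on Zv9 were given for 48 of the 63 members, spread over 23 chromosomes, with 6 on chromosome 3. On chromosome 3, prmt1 (32225119 to 32231307), setd1a (32582443 to 32610864) and kat7a (32758082 to 32770575) lie close together, and of these only kat7a passed the test. On chromosome 2, chd8 (38105186 to 38133405) and prmt5 (38359959 to 38380689) are neighbours by position, and only prmt5 is in the mother-specific list. Of the 63 probes, 45 are annotated as binding at least 1 further transcript record, which may be of the same gene, so a share of signal from related transcripts cannot be told apart.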

How the data were processed

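Intensities of single eggs and of a common egg reference were read on 24 two-colour arrays. The deposited scanner files, made by the authors with Agilent Feature Extraction 10.7.3.1, give median spot intensities in Cy3 (egg) and Cy5 (reference). The deposited table of normalized values holds log2 Cy3 intensities that the authors quantile normalized. It served for the minimum of 7 and as an alternative.

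The log2 Cy3 intensities of the 88754 probes were quantile normalized, after 60 non-uniform spots were set to missing. Expressed probes, 27077 in number, were those assigned to the high-variance class (split at a log2 variance of -3.75) with a probability above 0.95 in 4 or more eggs. They were fitted with limma 3.58.1 in R 4.3.3 with the 5 mothers as groups, with a moderated F-test and 10 contrasts between mothers, and Benjamini-Hochberg adjustment over all 27077 (within each contrast for pairs) at 0.05. The code was tested on simulated data. Differences between mothers are measured over eggs of 1 clutch each.

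Genes were paired with probes through the study's own lists, which are held in part, and 52 of the 63 gene identifiers were found in the gene name table used here. Members and gene lists were chosen with earlier results of these data known. Values by egg or clutch are given by rule for tested members over 2-fold, for mother-specific ones over 2-fold, and for the ends of each role group, 24 members in all. Others were added after their values were seen. Alternatives covered the signal, normalization, blocks, filters, test and each egg left out. Arrays carry no read depth, so their number limits the precision. The values of 1 member are not reported here, although it enters the counts.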

Additional observations from a re-analysis of the deposited data

Results flagged for a closer look

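Of 120 groups formed by the 24 members with values selected by rule and the 5 clutches, 6 held an egg far from its sisters (a gap to the nearest egg that takes up most of the clutch range, past Dixon's critical value). Chance marks about 1 in 20 such groups. In mother 5, egg 1 was high in h1m (11.35, the others 11.17 to 11.19) and low in setd1a (8.79, the others 9.03 to 9.07). In mother 2, egg 3 was low in h3f3a (13.49, the others 13.77 to 13.83) and high in kdm7ab (8.22, the others 7.79 to 7.88), and egg 4 was low in cbx3b under ENSDARG00000040476 (7.56, the others 7.80 to 7.86). In mother 1, egg 1 was low in phf12 (9.82, the others 9.99 to 10.05). The cause was not tested.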

How the results depend on the processing

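The count of 22 of 39 members that differ between mothers stayed within 1.5 times under most settings, between 16 (processed signal) and 26 (array weights). It was 4 with arrays centred on their median, 13 with the Cy3 over Cy5 ratio after loess and 37 with q-values, which rest on an estimated share of 0.0601 unchanged transcripts and call 98.5% of all. Leaving out single eggs gave 19 to 24. The other chromatin genes, 17 of 38, came to 10 (processed signal), 0 (median centring), 11 (loess ratio), 11 (no filter on expression) and 37 (q-values), and to 13 to 19 without single eggs. Members over 2-fold apart in a pair numbered 6 with the processed signal, 27 with median centring and 1 with the array mean as a covariate, and 2 without any single egg. Distinct levels were found in 0 (median centring), 3 (loess ratio) and 1 (a gap of at least 0.2), and in 5 to 7 without single eggs. An mFC over 2 was found in 39 with median centring and in 21 to 23 without single eggs. Signs turned for h3f3a (-0.76) and phf12 (-1.05) with median centring and for csrp2bp (-0.0024) with the array mean as a covariate. With median centring the median of all expressed transcripts between the same mothers was -0.71 for the pair of h3f3a and -0.98 for that of phf12. Relative to these medians the 2 members were at -0.053 and -0.076. They turned with 1 egg left out for phf8 (-0.0085 to 0.143) and csrp2bp (-0.00069 to 0.104). The cause of these shifts was not tested. Over 46 pairs of eggs of the same number the correlation of deviations ran from -0.53 to 0.67, with a median of 0.061 and 22 over 0.1. Over 184 pairs of eggs of other numbers the median was -0.016. These values were not put to a test, so they cannot decide whether egg numbers pair the eggs. With egg number as a replicate block, 22 of the 39 members and 59.7% of all differed, and no call among the 24 members selected by rule changed. Of the 63 members, 59 were well above background on every array, the exceptions being chd2, chd6, arid3c and brd1a.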
